A study of Rattus norvegicus with 3 samples.

Results

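Lysosomal hydrolases, their activator proteins and proteins of the lysosomal membrane, cathepsins left aside, were examined in isolated renal proximal tubules. Members were chosen by gene symbol, from a list of 31 such genes, as all probe sets whose annotation named exactly 1 gene and that gene was on the list. This gave 38 probe sets for 28 genes, of 31099 probe sets and 14217 named genes in all. Sgsh, Galns and Npc1 had no such probe set, so they have no signal here and only their promoters were examined. The material came from male Sprague-Dawley rats aged 7 to 8 weeks, and 3 tubule preparations were each measured on 1 Affymetrix rat expression array. Every animal had received heparin, and the cortex of each collagenase-perfused kidney was digested before tubules were collected on a Percoll gradient. There was a single group without controls, so no contrast between conditions was tested and no p-value is given. The labels do not say whether the preparations came from separate animals, so the spread between arrays may be technical, and precision is limited by having 3 arrays.

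The lysosome is the acidic compartment in which cells break down proteins, glycans and lipids taken up from outside or delivered by autophagy. In the proximal tubule it receives the filtered proteins that megalin and cubilin bring in from the brush border. Soluble hydrolases reach it mostly through mannose 6-phosphate tags, the membrane is lined by glycosylated proteins such as Lamp1 and Lamp2, and transcription factors related to TFEB bind an E-box element found before many lysosomal genes.

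That element was looked for in the promoters first, because it is a sequence feature the choice of members did not use. RefSeq promoters of the GRCr8 assembly, from 250 bases before to 50 bases after the annotated start, were matched for 25 of the 31 listed genes, and Hexa, Arsa, Arsb, Asah1, Psap and Ppt1 had no entry. The E-box core CACGTG, which reads the same on both strands, stood in 6 of the 25 member promoters (24%), against 6.42% of all 33469 promoters of that length and 8.65% of the 13192 belonging to named genes on the array. The longer TCACGTGA, also the same on both strands and overlapping the core, stood in 2 of 25 (8%), against 0.777% and 1.39%. The median GC content was 62.7% for the member promoters, 59.7% for those of named genes on the array and 51.7% for all promoters. The part of GC content in these shares was not tested. Lamp1 held 5 copies of the core, starting 183, 167, 150, 65 and 38 bases before its start, and the last of these and the one at 65 lay within the longer motif. Mcoln1 held 2 copies, 1 starting 22 bases before its start and 1 at base 5 after it, the latter within the longer motif. Gaa, Glb1, Cd63 and Sgsh held 1 copy each. A match describes the sequence and does not show that a factor binds there. The promoters of Lamp1 and Mcoln1 are shown whole because they held several copies, and 30 bases around the single copy are shown for Glb1, Gaa and Cd63, 5′ to 3′ on the gene's strand with the core in capitals.
Lamp1 promoter, chr16:83075014-83075313, GRCr8, minus strand: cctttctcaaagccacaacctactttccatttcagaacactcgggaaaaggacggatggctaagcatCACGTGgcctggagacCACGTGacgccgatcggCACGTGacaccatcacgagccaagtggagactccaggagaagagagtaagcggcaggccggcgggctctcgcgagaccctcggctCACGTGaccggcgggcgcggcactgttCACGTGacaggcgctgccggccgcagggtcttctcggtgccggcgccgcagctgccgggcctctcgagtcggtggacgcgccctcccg
Mcoln1 promoter, chr12:6358008-6358307, GRCr8, plus strand: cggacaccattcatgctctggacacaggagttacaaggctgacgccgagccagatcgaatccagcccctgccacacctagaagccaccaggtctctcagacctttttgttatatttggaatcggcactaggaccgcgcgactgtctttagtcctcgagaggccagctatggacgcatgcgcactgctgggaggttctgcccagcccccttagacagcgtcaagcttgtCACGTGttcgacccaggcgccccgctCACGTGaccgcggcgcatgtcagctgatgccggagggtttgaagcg
Glb1 site, in chr8:122963468-122963767, GRCr8, plus strand: cggctccggagtCACGTGgcctgcagaggc
Gaa site, in chr10:105028105-105028404, GRCr8, plus strand: ccgcccacaaacCACGTGacccacgctgcc
Cd63 site, in chr7:1921894-1922193, GRCr8, plus strand: ccgggcagcggcCACGTGgcctgtccaggc

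Values were the deposited linear signal intensities of probe sets. With control probe sets left out, the median was 37.1, 37.4 and 34.9 on arrays 1, 2 and 3, and the 75th percentile was 181, 167 and 167. Spearman's rho across probe sets was 0.944 to 0.947 for the 3 pairs of arrays, a description across genes, which are not independent replicates. Markers of the labelled cell type were high: all 12 listed proximal tubule markers lay above the median on every array, including Gatm (10460, 10617 and 10734), and the median percentile of their list was 99.5. Markers of other cells varied, beside 61% of all named genes above the median on every array. All 5 thick ascending limb markers lay above it, with Umod at 5474, 4209 and 5143, as did all 5 measured endothelial markers. So did 4 of 7 distal and collecting duct markers and 8 of 21 macrophage and dendritic cell markers. Among stromal markers 2 of 5 did, and 1 of 4 measured podocyte markers. These last 4 counts did not exceed the share of all named genes. The median percentiles of those lists were 58.6, 34.8, 40.2 and 31.8. In bulk samples such as these, fewer cells of a type and less RNA per cell cannot be told apart.

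The lysosomal genes as a list stood high in these tubules. On every array all 28 measured members exceeded the array median, where 61% of all named genes did, and 27 of 28 lay above the 75th percentile on every array, where 36.4% did. The exception was Scarb2. The median percentile of the list among all named genes was 90.9 ± 0.400 (SD, n = 3 arrays), with 91.0, 91.2 and 90.4 on arrays 1, 2 and 3. A gene with several probe sets was represented by the one with the highest mean, and 19 genes had a single probe set. Probe sets differ in affinity, so the signals of different genes are not ranked against each other below.

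**Figure D1:**
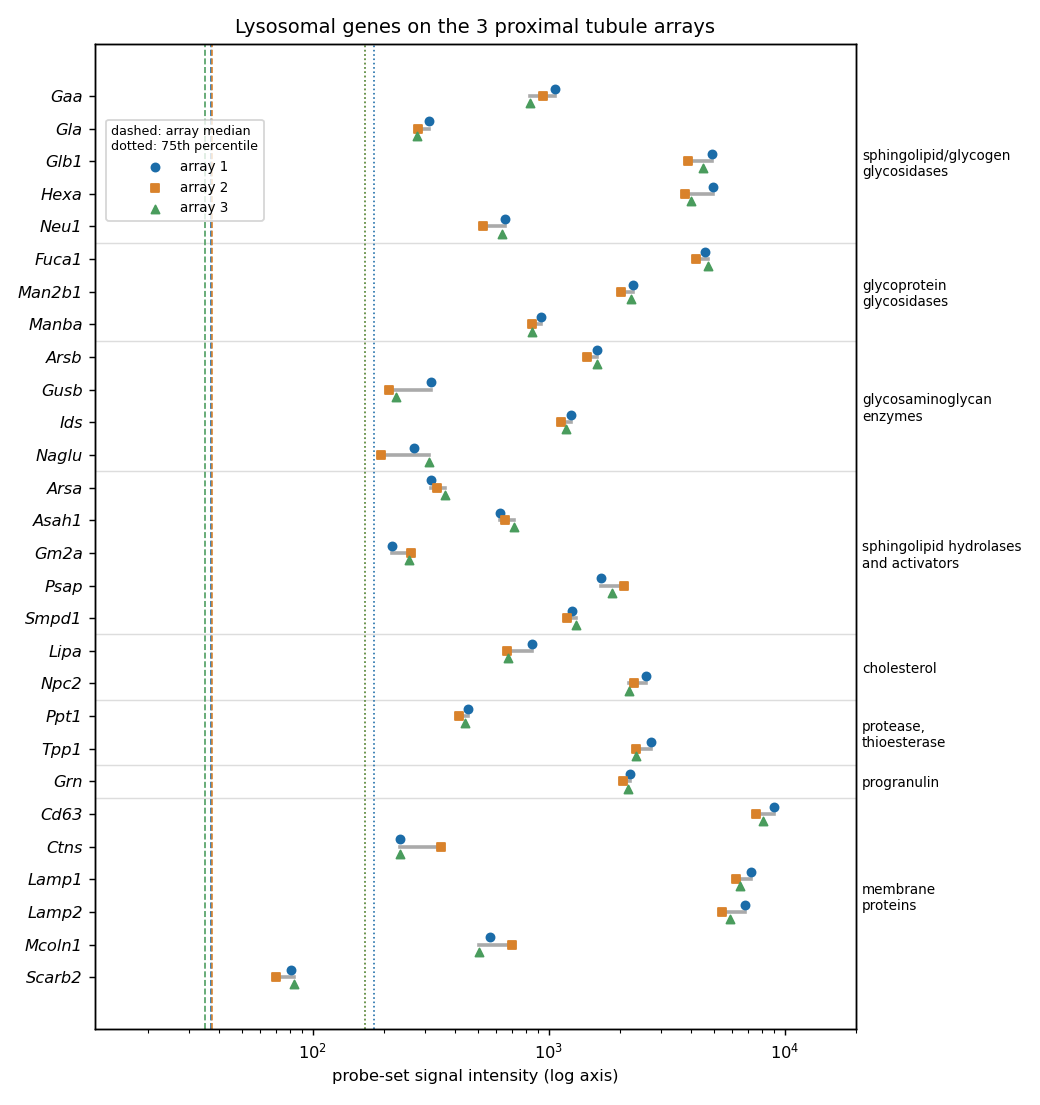
Deposited signal intensity (log axis) of the 28 measured lysosomal genes, grouped by role, with 1 point per array and a grey bar from the lowest to the highest array. Dashed and dotted lines are the median and the 75th percentile of each array; all genes but Scarb2 lie to the right of both lines, and Naglu, Gusb and Ctns have the widest bars.

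The glycosidases of sphingolipids and glycogen, with the sialidase Neu1 placed among them, numbered 5 and all lay above the 75th percentile on every array. Hexa, the alpha subunit of beta-hexosaminidase, gave 4982, 3796 and 4022 on arrays 1, 2 and 3. Glb1, beta-galactosidase, gave 4904, 3908 and 4522. Both were highest on array 1 and lowest on array 2. Gaa, which breaks down glycogen, gave 1061, 944 and 832. Gla, the alpha-galactosidase lost in Fabry disease, gave 312, 279 and 276. In these deposited signals array 3 was the lowest for both genes, and Gla was lowest on array 2 once centred on array medians. Neu1, the lysosomal sialidase, gave 655, 526 and 632. All 5 deposited signals were highest on array 1, and 4 of 5 were after centring, when Neu1 was highest on array 3.

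The glycosidases of glycoproteins differed little between arrays. Fuca1, the fucosidase, gave 4596, 4204 and 4731. For Man2b1, the alpha-mannosidase, the signals were 2289, 2020 and 2228. Manba, the beta-mannosidase, gave 927, 847 and 848. Array 2 was the lowest in each, and the range over the arrays was 1.10-fold for Manba, 1.16-fold for Man2b1 and 1.18-fold for Fuca1. Here and below, ranges are of log2(signal + 16) centred on the median of each array, turned back into folds.

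Among enzymes of glycosaminoglycan breakdown, 2 were steady and 2 were the most variable enzymes of the list. Arsb, the sulfatase acting on dermatan sulfate, gave 1601, 1449 and 1596. Ids, the iduronate sulfatase, gave 1249, 1134 and 1186. Their ranges were 1.15-fold and 1.11-fold. Naglu, the glucosaminidase of heparan sulfate breakdown, gave 269, 194 and 310, a range of 1.63-fold with array 2 the lowest. Gusb, beta-glucuronidase, gave 318, 211 and 226, a range of 1.48-fold, and it was array 1 that stood above the other two.

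Hydrolases of sphingolipids and the activator proteins that lift these lipids from membranes showed another order of the arrays. Psap, the precursor of the saposins, gave 1668, 2094 and 1857. Gm2a, the activator of ganglioside breakdown, gave 218, 261 and 257. Asah1, acid ceramidase, gave 619, 654 and 716. In these 3 genes array 1 was the lowest. Arsa, the sulfatase acting on sulfatide, gave 318, 336 and 362, again lowest on array 1. Smpd1, acid sphingomyelinase, gave 1259, 1198 and 1303 and was lowest on array 2. The ranges of the 5 genes ran from 1.14-fold for Smpd1 to 1.25-fold for Psap.

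Of the genes handling cholesterol and protein, Npc2, which passes cholesterol to the membrane protein Npc1, gave 2579, 2311 and 2188. Lipa, the acid lipase that frees cholesterol from its esters, gave 848, 667 and 673. Both were highest on array 1. Tpp1, a tripeptidyl peptidase, gave 2714, 2337 and 2358. Ppt1, which removes palmitate from proteins, gave 457, 419 and 442. Grn, the gene of progranulin, a secreted protein that lysosomes process, gave 2215, 2059 and 2169. Its coefficient of variation over the arrays, 3.72%, was the lowest of the 28 genes.

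The membrane proteins split into genes that were lowest on array 2 and genes that were highest there. Cd63, a tetraspanin of late endosomes and lysosomes, gave 9005, 7543 and 8067. Lamp1, a major glycoprotein of the lysosomal membrane, gave 7176, 6209 and 6473. Lamp2, its relative with roles in autophagy, gave 6781, 5409 and 5854. These 3 genes shared the order array 1, array 3, array 2. Scarb2, the receptor that carries glucocerebrosidase to lysosomes, gave 81.2, 70.2 and 83.7, between 1.88 and 2.40 times the array median. In contrast, Ctns, the cystine exporter whose loss causes cystinosis with proximal tubule failure, gave 234, 349 and 234, a range of 1.46-fold. Mcoln1, a cation channel of the lysosomal membrane, gave 566, 700 and 505, a range of 1.31-fold. Array 2 stood above both other arrays in Ctns and Mcoln1.

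Differences between preparations were small for most members. The coefficient of variation of the signal over the arrays had a median of 8.80% for the 28 genes, against 10.5% for all 7108 named genes above the median level, and it was under 10% in 17 genes and under 20% in 25. Of the 27 members above the median level of named genes (Scarb2 was below it), 1 varied by 1.5-fold or more between arrays, where 8.88% of all such genes did, and 0 varied by 2-fold or more, where 1.39% did. The single gene was Naglu. Most members (21 of 28) lay above the 75th percentile of named genes by mean level, where 5.77% ranged by 1.5-fold or more and the median SD was 0.13 on the centred log2 scale, the same to 2 decimals as for the members. The median SD of the 27 genes on the centred log2 scale was 0.13, and 0.15 for all genes above the median level. Leaving out array 1, 2 or 3 gave 0.12, 0.076 and 0.15 for the members beside 0.12, 0.11 and 0.13 for all such genes, so among these 3 only the comparison without array 2 gave a lower value for the members. The count of members past 1.5-fold was 0 without array 2 or without array 3.

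**Figure D2:**
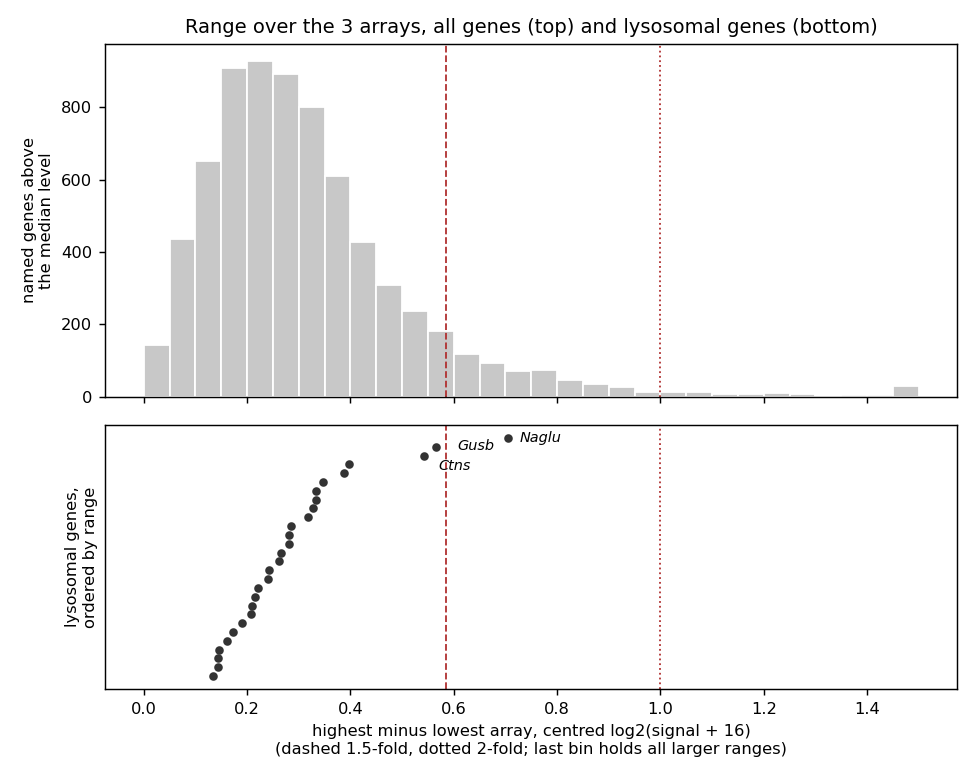
Range over the 3 arrays, as the highest minus the lowest value of centred log2(signal + 16), for all 7108 named genes above the median level (top, counts per bin) and for the 28 lysosomal genes (bottom, 1 point per gene, ordered by range). Naglu alone lies past the dashed line at 1.5-fold, with Gusb and Ctns just short of it, and none lies past the dotted line at 2-fold.

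The order of the arrays was then compared with that of other genes, since most members shared a low value on array 2. The ratio of 3' to 5' control probe sets, a sign of RNA quality, was 3.85, 3.28 and 3.66 for actin and 1.52, 1.52 and 1.40 for GAPDH on arrays 1, 2 and 3, and its part in the order of the arrays was not tested. On the centred scale, 20 of 28 members were lowest on array 2, where 56.7% of all named genes above the median level and 68.1% of those above the 75th percentile of mean level were, and 13 of 28 were highest on array 1, where 53.1% were. The median deviation of members from their own means was 0.058, -0.097 and 0.039 log2 units on arrays 1, 2 and 3, beside 0.071, -0.079 and 0.013 for all genes above the median level. Quantile normalization, which gives every array the same distribution of signals, left 7 of 28 members lowest on array 2 (30.2% of all genes above the median level), 13 lowest on array 1 (34.4%) and 8 lowest on array 3 (35.4%). Median deviations were then -0.011, -0.00072 and 0.0057. The low values on array 2 were thus shared with other genes above the median level, and their size depended on the scaling.

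A minority of members went against that order. Highest on array 2 were Ctns, Mcoln1 and Psap (3 of 28), where 12.5% of all named genes above the median level and 6.61% of those above the 75th percentile of mean level were. Deviations on array 2 were 0.34 for Ctns, 0.23 for Mcoln1 and 0.14 for Psap, and 0.41, 0.32 and 0.26 after quantile normalization. All 3 genes were highest on array 2 under each of the 4 scalings, which were centring on array medians, quantile normalization, no centring and a common trimmed mean. They were named for being highest there, and rescaling the same arrays is not separate support. With quantile normalization 9 of 28 members were highest on array 2, where 32.3% of all genes above the median level were. With a common trimmed mean 5 of 28 were, beside 31.9%. Ctns, Mcoln1 and Psap had 1 probe set each, so no second measurement of these transcripts was at hand.

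In the sphingolipid hydrolases and activators, 4 of 5 genes were lowest on array 1, where 16% of all named genes above the median level were. The fifth, Smpd1, joined them after quantile normalization and after scaling to a common trimmed mean (5 of 5, beside 34.4% and 33.9%). The median deviation of the 5 genes on array 1 was -0.11 and, after quantile normalization, -0.19. The 5 genes grouped as sphingolipid and glycogen glycosidases, Neu1 among them, had the opposite sign on array 1, at 0.13 and 0.064. This grouping by role was made after the values had been seen, each group is small, and the difference between the groups was not tested. Beside this, all 5 measured endothelial markers were lowest on array 1 under each of the 4 scalings, with a median deviation there of -0.38, and that of the 5 stromal markers was -0.18. It was -0.15 for the 7 distal and collecting duct markers and -0.037 for the 4 measured podocyte markers. It was positive for proximal tubule (0.069), macrophage and dendritic cell (0.12) and thick ascending limb markers (0.14). The part of any of these cells in the low values on array 1 was not tested. The second probe sets of Arsa (212, 178 and 259) and Asah1 (281, 209 and 272) were lowest on array 2, unlike the first.

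**Figure D3:**
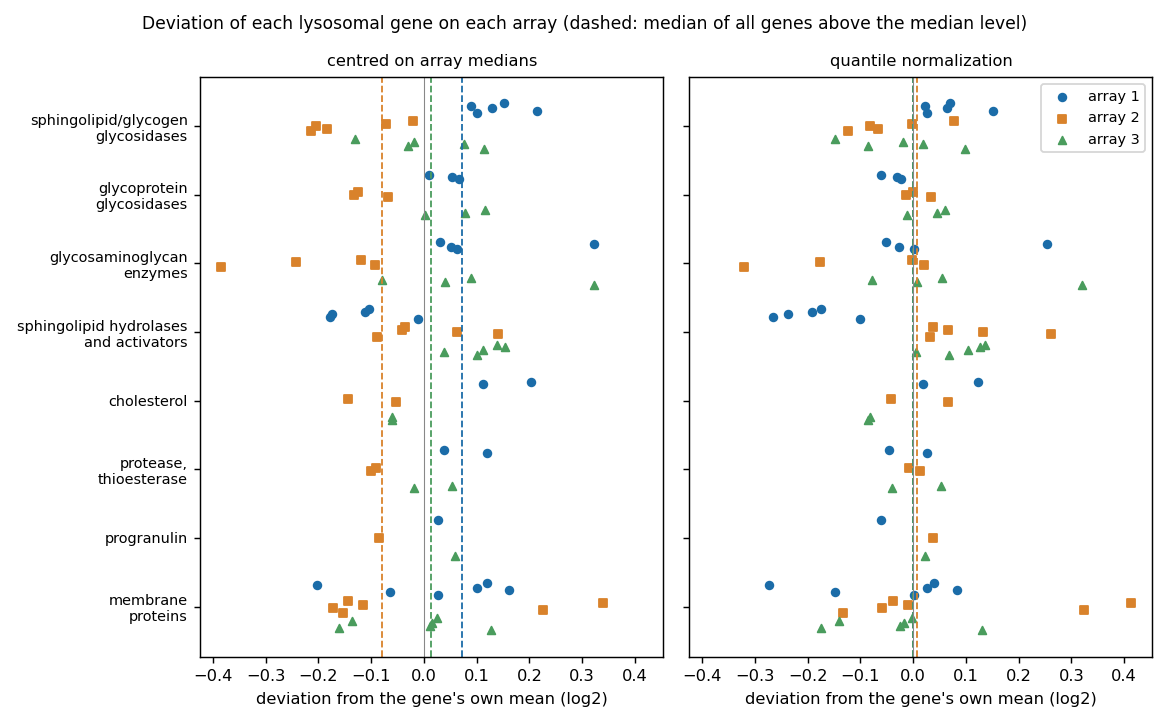
Deviation of each lysosomal gene from its own mean over the arrays (log2 units), by role and array, after centring on array medians (left) and after quantile normalization (right). Dashed lines are the medians of all named genes above the median level; the low values on array 2 seen at left are mostly gone at right, while sphingolipid hydrolases and activators stay low on array 1 and Ctns and Mcoln1, the 2 rightmost membrane protein points, stay high on array 2.

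More than 1 probe set was present for 9 genes, and these showed how far a signal depends on the probes. The Lamp1 probe set of highest signal was joined by 2 others at 12.7, 9.43 and 11.0 and at 2.58, 12.8 and 9.22, below the median of every array. For Man2b1 the second probe set reached 31.3 at most, on array 2, also below the median of every array. The other 7 genes had 2 probe sets each above the median on all arrays. Their mean signals differed by 1.08 times in Gla, 1.57 in Arsa, 1.86 in Arsb, 2.04 in Neu1, 2.61 in Asah1, 3.69 in Lamp2 and 3.95 in Gaa. On the centred scale the highest array was the same for both probe sets in 4 of the 7 genes, the lowest array was the same in 4, and both were the same in 2, Gla and Neu1. The second Neu1 probe set was nearly flat, at 296.8, 297.1 and 295.4. Its deposited signal was highest on array 2 and lowest on array 3, so its agreement with the first arose only with centring. In all, 35 of the 38 probe sets lay above the median of every array.

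**Figure D4:**
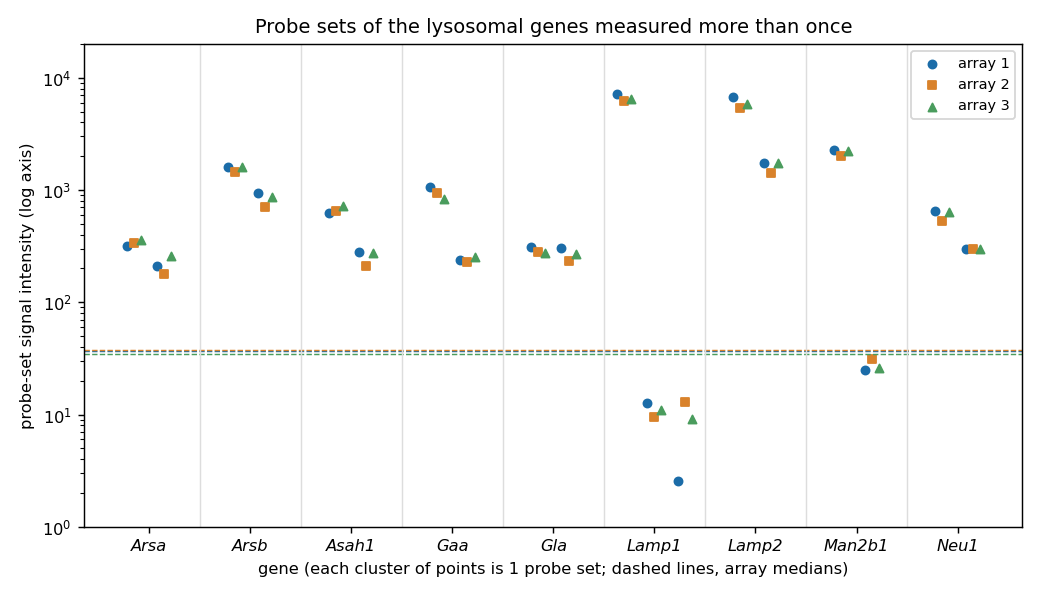
Signal intensity (log axis) of every probe set of the 9 lysosomal genes measured by more than 1, with 1 point per array and dashed lines at the array medians. The 2 additional Lamp1 probe sets and the second Man2b1 probe set lie below the medians, and the other 7 genes have both probe sets above them.

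Other genes of the lysosome were read in the same way, from 6 lists. Counts of genes above the median, here and in the next paragraph, stand beside 61% of all named genes. The first list, of cathepsins and legumain, was near that share. Of 14 cathepsin and legumain genes, 9 lay above the median on every array, with Ctsl at 11896, 10016 and 9955, Ctsa at 10717, 9676 and 10427 and Ctsh at 9781, 8632 and 9888, while Ctsw gave 1.93, 1.67 and 1.68. The list spans genes of other tissues and immune cells, and its median percentile was 85.4. Of 18 measured further enzymes, 16 lay above the median, including the carboxypeptidase gene Scpep1 (8536, 6968 and 6322), Cpq (3277, 2737 and 2907) and Ggh (2911, 2219 and 2910), and Naaa gave 1.44, 2.03 and 1.79. Of 20 measured further membrane genes, 16 did, with Cd164 at 5476, 4655 and 5447, Glmp at 3660, 3266 and 3701 and Laptm4a at 3605, 3035 and 3709. The lowest by mean of that list was Slc36a1, at 5.33, 11.6 and 5.85.

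All 12 genes of delivery to lysosomes lay above the median on every array. Igf2r and M6pr, the mannose 6-phosphate receptors, gave 5317, 5164 and 5791 and 2462, 1866 and 1814. Ap3d1, an adaptor subunit, gave 2685, 2518 and 2660, and Gga3 gave 79.3, 70.8 and 72.6. Of 23 genes of the proton pump that acidifies the compartment, 20 did, and their median percentile was 93.7. They included Atp6v0c (5244, 4653 and 5737), Atp6v0d1 (3782, 3392 and 3654) and Atp6v1a (3628, 2938 and 3605), and Atp6ap1l gave 3.41, 3.18 and 2.67. All 14 measured regulators did, among them Lamtor5 (3663, 2874 and 2874), Lamtor4 (1103, 912 and 1099) and Lamtor2 (939, 931 and 1015) of the complex that holds mTORC1 at the lysosome, with Rptor the lowest at 129, 82.4 and 125. In all 6 lists, 0 genes above the median level ranged by 2-fold or more, where 1.39% of all such genes did. At 1.5-fold there were 2 of 14 regulators and 1 of 15 further enzymes, and 0 in the other 4 lists, where 8.88% did. With lists this small, these counts do not set them apart from other genes.

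Macrophages are rich in lysosomes, so their markers are given beside these values. Summed signals of the 21 markers were 10470, 5507 and 12184 on arrays 1, 2 and 3, of which Cd74, the invariant chain, gave 4952, 3011 and 4827. Of the class II genes, RT1-Bb gave 1169, 20.7 and 2230, RT1-Ba gave 889, 333 and 1376 and RT1-Da gave 2199, 1069 and 2369, each a range of more than 2-fold. Without Cd74 and the class II genes, the 17 other markers summed to 1261, 1073 and 1382. Ctss and Laptm5 stood both in this list and in the lysosomal lists. No marker was at 0, and the lowest, Itgam, gave 2.44, 2.31 and 1.58. The part of such cells in the lysosomal signals was not tested. Summed signals of the 28 lysosomal genes were 59902, 52130 and 54950, lowest on array 2 as for the macrophage markers, and those of the 12 proximal tubule markers were 88501, 79859 and 84521, with arrays in the same order. The macrophage marker sums differed from that order in being highest on array 3. The order was not particular to the lysosomal and proximal tubule lists. Thick ascending limb markers summed to 12538, 10423 and 11061, and the sum over all named genes also ran from array 1 through array 3 to array 2.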

How the data were processed

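Total RNA of 3 rat proximal tubule preparations was biotin-labelled and hybridised to 1 array each, per the labels. The deposited values were signal intensities on a linear scale for 31099 probe sets, 57 of them controls. The summarisation software and any scaling between arrays are not given in the sources used here, and no detection calls were used. The platform annotation named 1 gene for 20826 probe sets, several for 436 and none for 9780. Gene identifiers of 20758 probe sets matched RefSeq's GRCr8 table, which changed 0 symbols. Each gene took its probe set of highest mean signal. Differences between arrays were computed as log2(signal + 16) centred on each array's median over non-control probe sets, with Python 3.11.15, pandas 2.3.3 and numpy 2.4.6, and the counting steps were tested on simulated data. Promoters were searched by exact match. With 1 group, values are described without a test. Members and lists were chosen with earlier results of these data known. All members could be named. From each other list, the rule allowed the 3 highest members, the lowest and any member above the median level ranging 2-fold. Protein features were planned and not analysed here. Alternatives were the mean of probe sets, probe sets without a shared-transcript suffix, each array left out, removal of the lowest 20% of genes, pseudocounts of 1 and 64, 3 other scalings and lines at the 25th and 75th percentiles.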

Additional observations from a re-analysis of the deposited data

How the results depend on the processing

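Over 13 alternatives, 77 values were recomputed for the lysosomal genes as a list. Of these, 63 kept their direction and stayed within the spread between arrays or, for counts and SDs, within 1.5 times the reported value. For median deviations that spread was 0.13, larger in size than each reported deviation, so any shrinkage without a change of sign passed. The array 2 value passed though it went from -0.097 to -0.00072 with quantile normalization. The 63 also include values that could not fail. With an array left out or a lower line, the count of members above the median could not fall. With an array left out, the count ranging 2-fold, which was 0, could not rise. Median deviations, median SD and the 1.5-fold count were identical without suffixed probe sets and without the lowest 20% of genes. The 63 are therefore not a measure of stability. The median percentile was 91.8 when the probe sets of a gene were averaged and 88.6 without the lowest 20% of genes. The count of members ranging 1.5-fold was 2 with a pseudocount of 1, with quantile normalization and with a common trimmed mean, and 0 with a pseudocount of 64. The added gene was Gusb with the pseudocount of 1 and Ctns with both scalings. Leaving out 1 array in turn gave counts from 0 to 1 and a median SD from 0.076 (without array 2) to 0.15, and quantile normalization gave 0.078. The median deviation on array 1 changed sign to -0.011 with quantile normalization, -0.013 with a common trimmed mean and -0.00033 without array 2. Without array 3 it was 0.081. The median deviation on array 3 changed sign to -0.0050 without centring. With 1 array left out it stayed positive, at 0.074 without array 1 and 0.00033 without array 2. The direction on array 1 thus depended on the scaling and on which arrays were used, and that on array 3 on the scaling. The cause of these changes was not tested. Of 308 values for the range of single members, 263 moved by less than the gene's own SD over the arrays. That count includes alternatives that could not change a member's range. Leaving out probe sets with a shared-transcript suffix or the lowest 20% of genes returned every range unchanged. No paired analysis was possible because there was 1 group. Scarb2 had the signals nearest to the array medians, and 3 arrays limit the precision throughout.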

Other observations

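Outside the members, 3 lysosomal genes with their highest deposited signal on array 2 are given here, chosen after their values were seen. Tpcn1, a cation channel of endosomes and lysosomes, gave 892, 971 and 959 on arrays 1, 2 and 3. Pla2g15, a lysosomal phospholipase, gave 397, 421 and 415, and Slc66a1, an exporter of basic amino acids, gave 243, 258 and 229. Once centred on array medians, Tpcn1 and Pla2g15 were highest on array 3. Among regulators, Tfeb gave 206, 163 and 215, Tfe3 218, 228 and 225, Mitf 114, 116 and 128 and Tfec 528, 472 and 475. Each ranged by less than 1.5-fold. Once centred, Tfec was highest on array 1 and the others on array 3. These genes were named outside the rule for lists.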
